A study of Mus musculus with 9 samples.

Results

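DNA replication and mitosis genes were followed in mouse lenses at stage E16.5 of embryonic development. The group is a fixed list of 40 genes, 20 for DNA replication and 20 for mitosis and proliferation. It was chosen by name and not by a cut on values, but with earlier results of these data known. Each of the 40 has 1 entry among the 22013 entries of the table, of which 15820 carry a gene symbol. The study made 3 libraries of each genotype, each from RNA of 8 pooled lenses. Control lenses were *Mafg*+/-:*Mafk*+/-, that is, heterozygous at both genes and not wild type. Compound KO lenses were *Mafg*-/-:*Mafk*+/- and double KO lenses were *Mafg*-/-:*Mafk*-/-. Both alleles are germline knockouts present in every cell of the embryo, so they are not limited to the lens, and the mice were kept on the ICR strain background. *Mafg* and *Mafk* encode small Maf proteins, basic leucine zipper factors that bind DNA with partners of the Cap'n'collar and Bach families.

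In the embryonic lens, cells of the anterior epithelium divide, and daughter cells near the equator leave the cell cycle and elongate into fiber cells. Before DNA is copied, the loaders Cdc6 and Cdt1 place the ring of Mcm2 to Mcm7, the replicative helicase, on replication origins, and polymerases then copy the DNA held by the clamp Pcna. Mitosis genes are expressed later in the cycle, when kinases, kinetochore proteins and spindle proteins separate the chromosomes. In RNA of whole lenses, more dividing cells and more RNA of these genes in each cell cannot be told apart.

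The values are normalized CPM from the authors, read from the library totals as counts relative to library size after 1 composition factor per library, a scaling that the sources used here do not state. Depth per library is unknown, and the precision is given by the spread between the 3 libraries of a genotype. Differences are on the log2(value + 1) scale from limma's moderated test. It covered all genes that reached 1 CPM in 2 or more of the 6 libraries compared, with Benjamini-Hochberg adjustment over all of them. Calls required an adjusted p up to 0.05 together with a 1.5-fold change, and a nominal difference was any unadjusted p up to 0.05. Because 3 libraries against 3 allow 10 groupings, an exact permutation test of a single gene could not go below p = 0.1.

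The knockouts were seen in the targeted genes first. *Mafg* was at 123 ± 10.9 (SD, n = 3) in control, 18.4 ± 7.35 in compound KO and 24.0 ± 2.55 in double KO lenses, and *Mafk* was at 5.70 ± 0.557, 4.80 ± 0.500 and 0.300 ± 0.300. Lens fiber markers, of which 14 of 16 are in the table, added up to between 80204 and 90753 in control libraries, so the tissue carried its defining genes. In compound KO replicate 1 the same sum was 28976, against at least 50031 in the other 8 libraries, and the sums for neural retina (833.7, all 12 of 12 markers highest in this library), mesenchyme (2664, 12 of 15), skeletal muscle (396.5, 9 of 10) and surface ectoderm and cornea (298.6, 4 of 4) were above those of every other library. The surface ectoderm and cornea list held 8 markers, of which 4 are in the table, without *Krt14*, *Krt12*, *Trp63* and *Aldh3a1*. Compound KO replicate 1 stands apart for the replication and mitosis genes too, and counts and medians of the list that use it are given with and without it.

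All 40 genes were detected in the control lenses. Divided by the length in kb of the canonical GENCODE transcript, mean control levels were highest for *Mcm2* (27.0 CPM per kb), *Pcna* (22.4), *Mcm6* (15.3) and *Birc5* (14.6). They were lowest for *Bub1* (0.406) and *Prc1* (0.439). Most of the list went up and down together across libraries. The median Pearson correlation between pairs of the 40 genes was 0.86 over 9 libraries and 0.58 over the 8 without compound KO replicate 1. These are descriptions over libraries normalized together.

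Compound KO replicate 1 was the highest of the 9 libraries for 37 of the 40 genes, while it was the highest for 34.1% of 14512 other genes. Its values were a median of 1.87 times the mean of the other compound KO libraries over the 40 genes, against 1.0 over all genes, and 32 of the 40 were above 1.5 times. The ratio was 3.19 for *Mki67*, whose protein coats mitotic chromosomes and marks cycling cells, and 4.08 for *Prc1*, which bundles microtubules at the spindle midzone. At the other end, control replicate 2 was the lowest library for 31 of the 40 genes, as it was for 17.0% of other genes. Among the controls alone it was the lowest for 34 of 40, against 38.3% of other genes. The control reference for this list is therefore uneven: the 40 values added up to 925.0, 736.3 and 875.6 in controls 1 to 3. The sums were 1868, 970.2 and 987.2 in compound KO and 1081, 935.7 and 909.5 in double KO libraries, so that 1 of 3 control libraries is set apart on the low side and 1 of 3 compound KO libraries on the high side.

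**Figure D1:**
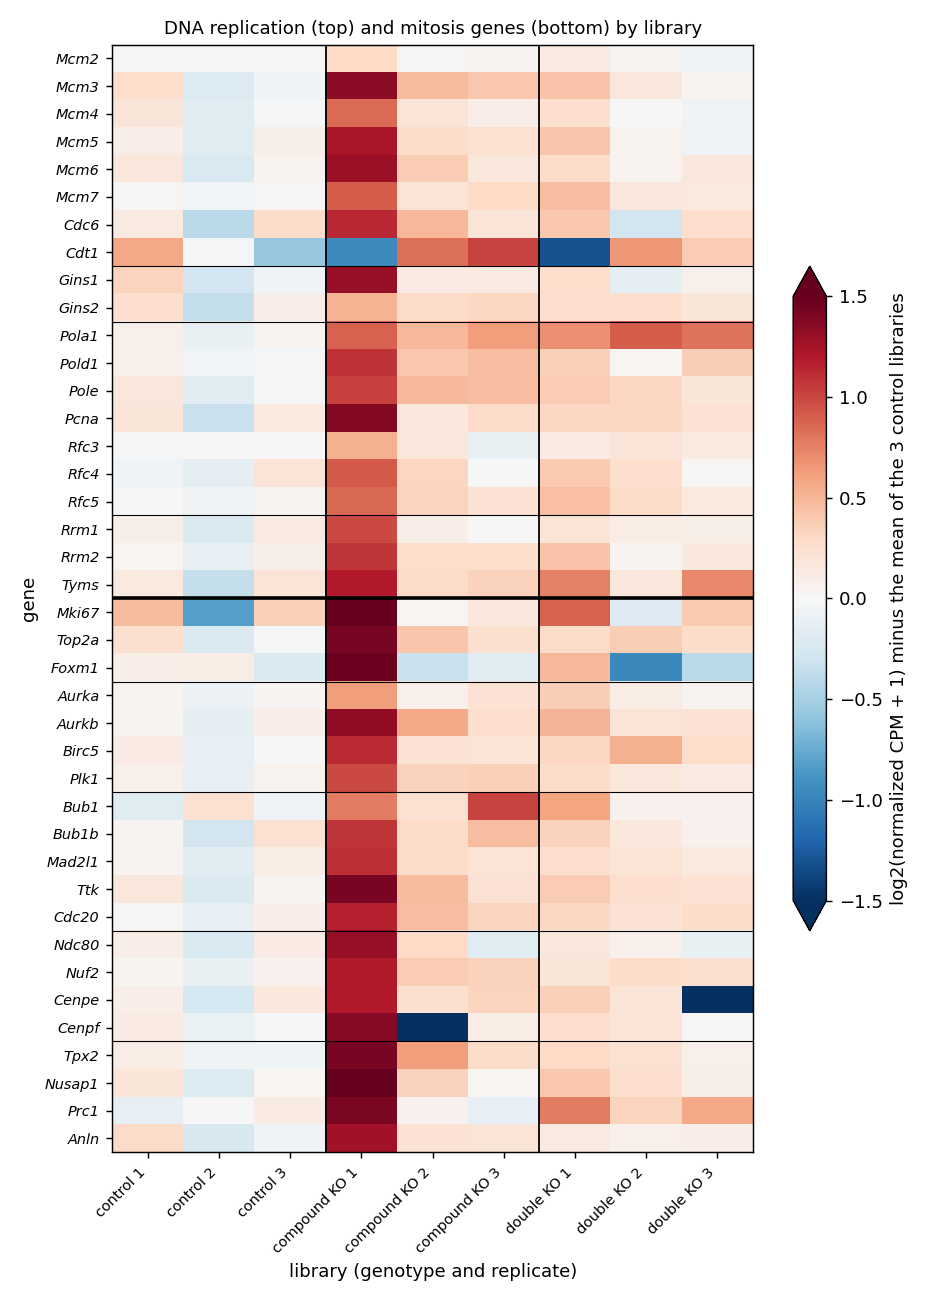
Each row is a gene and each column a library; color gives log2(normalized CPM + 1) minus the mean of the 3 control libraries, replication genes above the thick line and mitosis genes below it. Compound KO replicate 1 is red for nearly every gene, control replicate 2 is mostly blue, and *Pola1* is red in all 6 *Mafg*-null libraries.

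Promoter sequences separated the replication genes from the mitosis genes in a way that the values did not use. Cell cycle genes are known to be switched on in sequence by E2F factors, at the entry into DNA synthesis, and by complexes that act through the cell cycle homology region (CHR), before mitosis. RefSeq promoter windows on GRCm38.p6, each from 250 bases before to 50 bases after a start, were matched for 33 of the 40 genes (35 windows). The E2F letters searched were TTTCCCGC, TTTCGCGC, TTTGCCGC and TTTGGCGC on both strands. They were present in 9 of 17 windows of replication genes (52.9%), in 0 of 18 windows of mitosis genes and in 2.26% of all 32851 windows. The CHR letters TTTGAA, on both strands, were in 1 of 17 replication windows (5.88%), 12 of 18 mitosis windows (66.7%) and 17.9% of all windows. The letters CCAAT, on both strands, were in 64.7% of replication and 66.7% of mitosis windows, against 37.4% of all. For the small Maf proteins themselves, the letters TGACNNNGC, a site shared with Cap'n'collar partners, were found on either strand in 5 of 17 replication windows (29.4%) and 3 of 18 mitosis windows (16.7%), against 12.4% of all windows. The window of *Pola1*, printed below, held no TGACNNNGC match. The shares rest on few windows and a match is a description, not a bound site.

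The windows of a pair of replication genes and a pair of mitosis genes show the difference. In *Pola1* (chrX:93632106-93632405, minus strand) and *Mcm6* (chr1:128359656-128359955, minus strand) the capitals mark the E2F letters, in *Mki67* (chr7:135716330-135716629, minus strand) and *Cdc20* (chr4:118437294-118437593, minus strand) the CHR letters. In *Mcm6* the first run in capitals holds a pair of overlapping matches on opposite strands.
Pola1: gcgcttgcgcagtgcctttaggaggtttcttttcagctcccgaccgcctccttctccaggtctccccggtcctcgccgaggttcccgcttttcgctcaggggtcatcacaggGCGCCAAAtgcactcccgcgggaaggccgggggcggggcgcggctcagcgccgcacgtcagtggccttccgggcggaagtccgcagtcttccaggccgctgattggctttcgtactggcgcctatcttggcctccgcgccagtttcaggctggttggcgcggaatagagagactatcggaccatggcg
Mcm6: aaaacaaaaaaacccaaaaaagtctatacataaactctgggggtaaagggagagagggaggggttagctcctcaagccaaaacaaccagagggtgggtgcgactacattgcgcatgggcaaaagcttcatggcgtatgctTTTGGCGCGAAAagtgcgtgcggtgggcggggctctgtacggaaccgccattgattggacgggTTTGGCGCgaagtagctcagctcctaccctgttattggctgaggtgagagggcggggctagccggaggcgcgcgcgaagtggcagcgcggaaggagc
Mki67: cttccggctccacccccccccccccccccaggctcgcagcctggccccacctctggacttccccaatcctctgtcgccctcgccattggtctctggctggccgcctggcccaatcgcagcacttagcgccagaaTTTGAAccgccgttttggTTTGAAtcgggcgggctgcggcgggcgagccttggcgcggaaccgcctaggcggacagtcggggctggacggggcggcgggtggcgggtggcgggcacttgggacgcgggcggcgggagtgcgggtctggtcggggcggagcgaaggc
Cdc20: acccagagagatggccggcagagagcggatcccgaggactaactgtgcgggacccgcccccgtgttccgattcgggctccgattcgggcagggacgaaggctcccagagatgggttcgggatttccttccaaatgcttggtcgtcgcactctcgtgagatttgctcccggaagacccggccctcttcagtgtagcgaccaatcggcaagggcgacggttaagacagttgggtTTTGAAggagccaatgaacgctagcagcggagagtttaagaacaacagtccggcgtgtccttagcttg

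The first comparison asks how the list stands when both small Maf genes are lost, with double KO against control lenses. A single gene passed, *Pola1*, the catalytic subunit of DNA polymerase alpha, which starts each new DNA strand with primase. It rose 1.75-fold, as 1 call among 40 genes beside 0.361% called among all genes. The other 39 genes did not pass, and 37 of the 40 differences were above 0 with a median of 0.21 on the log2 scale, against 0.01 over all 14122 genes tested. Between the genotypes, then, most replication and mitosis genes lay slightly higher in double KO lenses, by less than the 1.5-fold threshold and mostly within the spread of the libraries.

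*Pola1* (GRCm39 chromosome X, 92348365 to 92675813, minus strand; the sequence of its promoter is given above) was at 24.0, 21.0 and 23.5 CPM in control libraries and at 37.2, 43.8 and 41.0 in double KO libraries. Every double KO library was above every control library. The difference was 0.81 ± 0.09 (log2, SE, n = 3 and 3; adjusted p = 0.0402 in limma). When 1 library at a time was dropped, the difference stayed between 0.75 and 0.87, but the adjusted p was between 0.0914 and 0.151, so the call needed all 6 libraries. The call was also lost with other scaling or other fits, at adjusted p of 0.0503 with library size scaling, 0.0760 in 1 fit of all 9 libraries and 0.318 with the replicate number as a block.

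The other polymerase and clamp genes were all higher on average in double KO lenses without passing the test. *Pole*, the catalytic subunit of the polymerase known for the leading strand, was at 14.6 ± 1.76 in control libraries and at 19.2, 18.3 and 16.7 in double KO libraries, without overlap (SD, n = 3; 0.29 ± 0.11, adjusted p = 0.469). *Pold1*, its counterpart known for the lagging strand, was at 20.2, 18.5 and 18.7 against 24.7, 19.6 and 25.0 (0.25 ± 0.11, adjusted p = 0.545), with double KO replicate 2 inside the control range. *Pcna* was at 38.3, 26.5 and 37.2 against 41.7, 41.7 and 39.3 (0.28 ± 0.15, adjusted p = 0.628). The 3 double KO values of *Pcna* lie close together, and without control replicate 2 the difference is 0.11. Of the clamp loader subunits, *Rfc5* differed by 0.29 ± 0.11, *Rfc4* by 0.22 ± 0.15 and *Rfc3* by 0.16 ± 0.07. *Rfc3* varied least between replicates, at 10.3, 10.6 and 10.4 against 11.5, 12.1 and 11.7.

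The helicase genes were close to the controls. *Mcm2* was at 92.2, 90.1 and 90.6 in control and 100.2, 93.4 and 88.0 in double KO libraries, and the groups overlapped (0.04 ± 0.06). *Mcm7*, with 38.0, 36.4 and 37.9 against 51.9, 42.3 and 41.5, was the 1 Mcm gene whose libraries did not overlap (0.26 ± 0.10, adjusted p = 0.465). The other helicase subunits, *Mcm3*, *Mcm4*, *Mcm5* and *Mcm6*, differed by between 0.07 and 0.21. Of the loaders, *Cdc6* differed by 0.12 ± 0.26. *Cdt1* was the 1 gene of the list that ran opposite to the rest over 9 libraries, at 13.9, 8.8 and 5.7 in control, 4.1, 16.6 and 19.0 in compound KO and 3.0, 14.6 and 11.9 in double KO libraries. Its lowest values were in compound KO replicate 1 and double KO replicate 1, the libraries in which the sums of the list were highest, and it correlated at -0.45 with the mean of the other members over 9 libraries. Without compound KO replicate 1 the correlation was -0.06, and that of *Cenpf* was lower (-0.33). The GINS genes *Gins1* and *Gins2*, whose products activate the helicase, differed by 0.06 ± 0.20 and 0.23 ± 0.17.

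The 3 nucleotide supply genes all overlapped the controls. *Tyms*, thymidylate synthase, was at 5.5, 3.6 and 5.8 in control and 8.9, 5.6 and 8.7 in double KO libraries, overlapping through double KO replicate 2 (0.55 ± 0.23, adjusted p = 0.535). The ribonucleotide reductase genes *Rrm1* and *Rrm2* differed by 0.13 ± 0.11 and 0.21 ± 0.12. Across the 20 replication genes, 19 were above 0, 1 was called, 4 were nominally higher (4.79% of all genes) and 6 lay higher without overlap (7.78% of all genes).

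Among the mitosis genes, the smallest unadjusted p-values belonged to *Prc1*, *Cdc20* and *Birc5*. *Prc1* was a low gene, at 1.1, 1.3 and 1.5 in control and 2.9, 1.9 and 2.4 in double KO libraries, without overlap (0.56 ± 0.15, adjusted p = 0.313). *Birc5*, survivin of the chromosomal passenger complex, was at 15.6, 13.0 and 14.4 against 17.9, 21.2 and 17.3, also without overlap (0.37 ± 0.11, adjusted p = 0.373). Its partner in that complex, the kinase *Aurkb*, differed by 0.31 ± 0.12 (adjusted p = 0.494).

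*Cdc20*, which activates the anaphase-promoting complex and whose promoter carries the CHR letters, was at 18.4, 16.6 and 19.5 in control and 22.8, 21.3 and 22.1 in double KO libraries (0.27 ± 0.08, adjusted p = 0.369). The groups did not overlap. Of the spindle checkpoint genes, *Ttk* differed by 0.28 ± 0.13, *Mad2l1* by 0.20 ± 0.09, *Bub1b* by 0.19 ± 0.15 and *Bub1* by 0.24 ± 0.20. The other mitotic kinases *Plk1* and *Aurka* differed by 0.19 ± 0.09 and 0.18 ± 0.11. Of the outer kinetochore pair, *Nuf2* differed by 0.23 ± 0.09 without overlap and *Ndc80* by 0.04 ± 0.14.

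*Mki67* showed how wide the spread between controls was. Its values were 74.4, 29.5 and 68.2 in control and 99.1, 46.4 and 70.4 in double KO libraries, and both groups spanned more than the difference between their means (0.36 ± 0.44, adjusted p = 0.841). Without control replicate 2 the difference was -0.05. *Top2a*, the topoisomerase that untangles sister chromatids, was at 13.2, 9.4 and 10.9 against 13.7, 14.6 and 13.6 (0.31 ± 0.13, adjusted p = 0.532). *Foxm1*, the transcription factor of late cell cycle genes, was at 13.1, 13.2 and 10.3 against 17.4, 5.7 and 8.9, that is, on both sides of the controls (-0.30 ± 0.37). The spindle genes *Nusap1*, *Tpx2* and *Anln* differed by 0.25 ± 0.13, 0.20 ± 0.09 and 0.10 ± 0.14.

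Both large kinetochore proteins had a library of their own in which the value nearly vanished. *Cenpe*, the kinetochore motor, was at 28.6 and 25.4 in double KO replicates 1 and 2 and at 2.0 in replicate 3, against 23.7, 18.3 and 24.8 in control libraries. *Cenpf* was at 0.2 in compound KO replicate 2, between 35.5 and 99.8 in the other 8 libraries. A library at least 5-fold under the lowest of the other 8, where that was at least 5, was seen in 2 of 35 eligible members and in 127 of 9163 entries (1.39%); this rule was chosen after these values were seen. The fitted differences of these genes, -0.80 ± 0.91 for *Cenpe* between double KO and control and -1.19 ± 1.64 for *Cenpf* between compound KO and control, rest on those single libraries. Without double KO replicate 3 *Cenpe* differed by 0.28, and without compound KO replicate 2 *Cenpf* differed by 0.74.

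**Figure D2:**
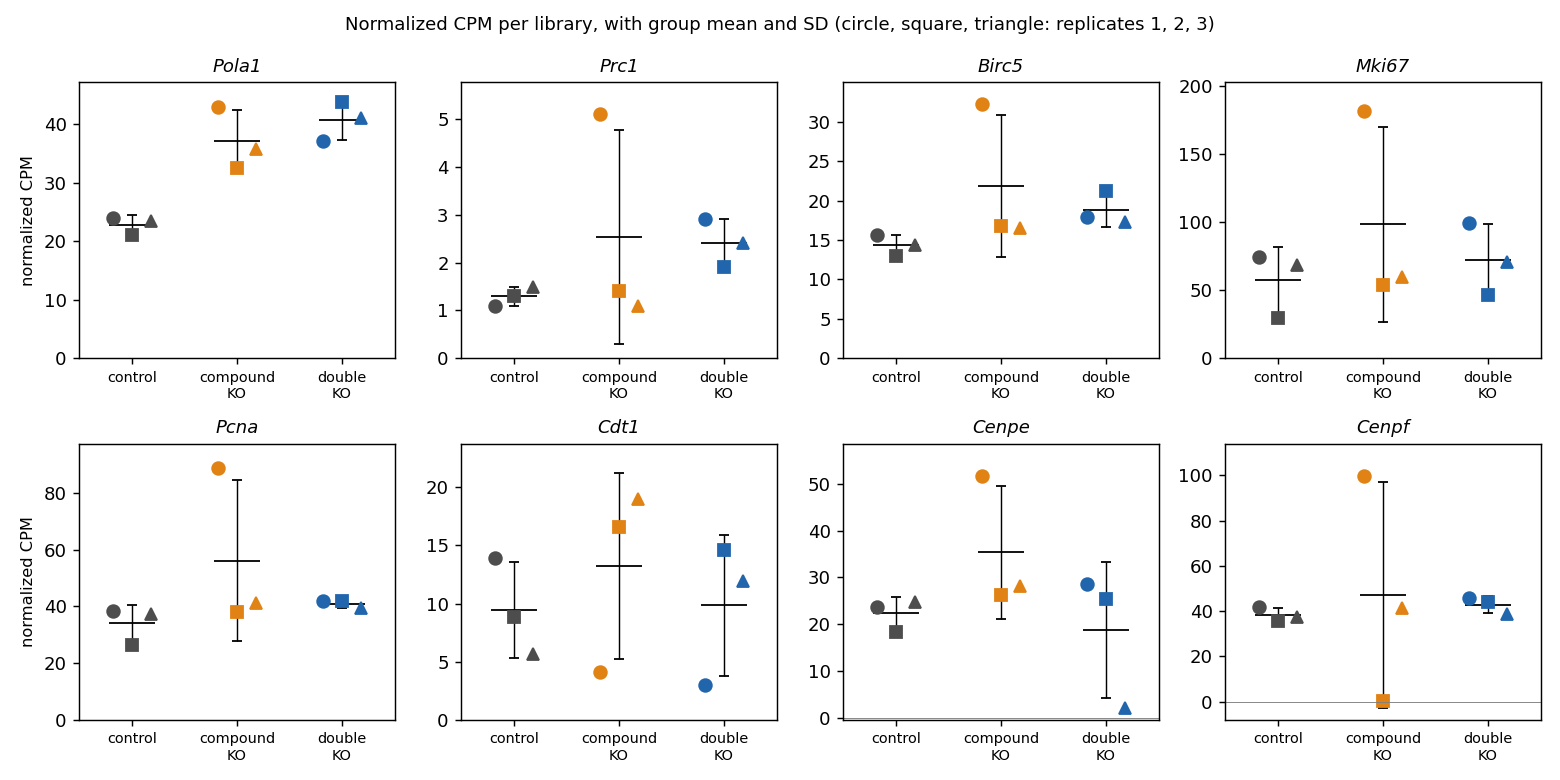
Normalized CPM of 8 genes in each library, with the mean (line) and SD (bar) of 3 libraries per genotype. *Pola1* is higher in all double and compound KO libraries than in all controls, *Mki67* and *Pcna* are lowest in control replicate 2, *Cdt1* is lowest in the replicate 1 libraries of both knockouts, and *Cenpe* and *Cenpf* each have a single library near 0.

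Counted over the list, 1 of 40 genes was called between double KO and control lenses, beside 0.361% of all genes tested. Nominally, 9 of 40 were higher and 0 lower, beside 4.79% and 5.18% of all genes. The libraries of the genotypes did not overlap for 15 genes, all higher in double KO, beside 7.78% of all genes higher and 8.04% lower. Without control replicate 2, 31 of the 40 were above 0, 3 (*Pola1*, *Prc1* and *Cdc20*) were nominally higher (4.26% of all genes), 16 did not overlap (12.5% of all genes) and the median fell to 0.13. The 16 hold the same 15 genes by necessity, since groups that are separate stay separate when a library is left out. Without double KO replicate 1, 32 were above 0 and the median was 0.15. In double KO libraries, 9 of 9 tested skeletal muscle markers and 8 of 9 erythroid markers were higher without overlap, with sums of 29.8 to 94.5 against 2.6 to 4.7 and 2388 to 3987 against 1200 to 1657 in control; lens epithelium sums were 1525 to 1643 against 1599 to 1747, and neural retina sums 50.0 to 163.1 against 39.0 to 112.9. Their part in the higher values of the list was not tested.

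**Figure D3:**
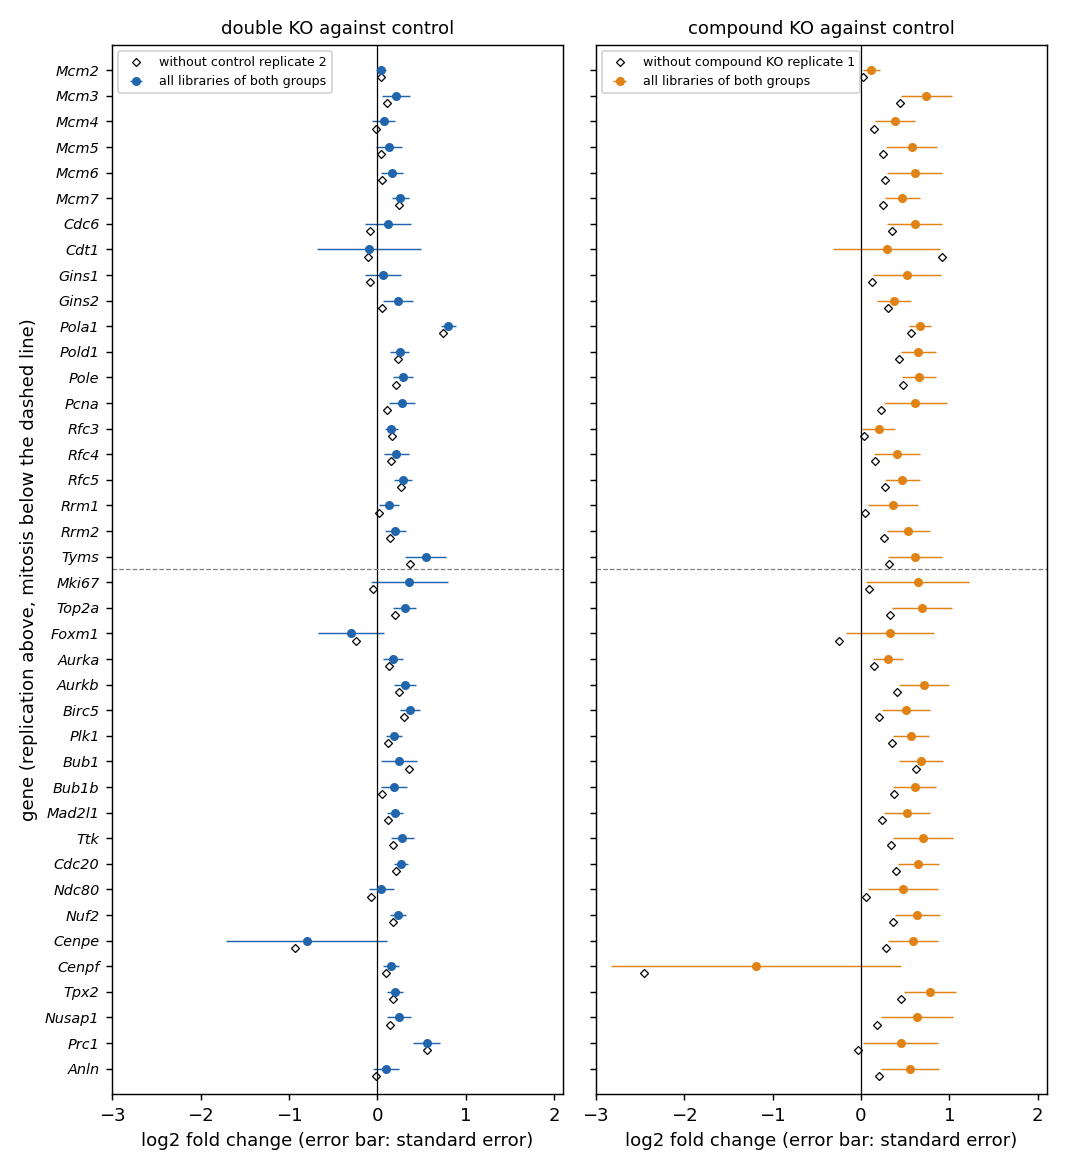
Log2 fold change of each gene with its standard error (circles), for double KO against control on the left and compound KO against control on the right; diamonds give the difference without control replicate 2 (left) or without compound KO replicate 1 (right). Most circles are above 0 in both panels, and *Pola1* keeps a difference of 0.75 on the left and 0.56 on the right when that library is left out.

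The second comparison asks what is seen when *Mafk* is still present on 1 allele, with compound KO against control lenses, which uses the same control libraries. No gene of the list passed (0 of 40 by limma), as no gene of all 14348 tested did (0%). The differences were above 0 for 39 of 40, with a median of 0.57 on the log2 scale against 0.02 over all genes. Much of that size came from 1 library: without compound KO replicate 1 the median was 0.27, and 37 of 40 were above 0. Without it 0 of 40 were called, beside 13 of all 14042 genes tested.

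In the nominal test, 11 of 40 were higher and 0 lower, beside 5.34% and 3.97% of all genes. These were *Pola1*, *Pold1* and *Pole* among the polymerases, *Mcm3*, *Aurkb*, *Plk1*, *Bub1*, *Bub1b*, *Cdc20*, *Nuf2* and *Tpx2*. The libraries did not overlap for 21 genes, all higher in compound KO lenses, beside 12.2% of all genes higher and 11.7% lower. Without replicate 1, 12 genes were nominally higher, beside 5.82% of all genes, and 22 lay higher without overlap, beside 16.1%. The 22 hold the same 21 genes by necessity, so this count is no check of how far they depend on replicate 1.

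*Pola1* was at 43.0, 32.6 and 35.7 in compound KO libraries, all above the highest control value of 24.0 (0.67 ± 0.13, adjusted p = 0.450). Without replicate 1 its difference was 0.56 (adjusted p = 0.207), so it depended less on that library than most of the list. *Pold1* was at 41.6, 25.6 and 26.8 against controls of 18.5 to 20.2 (0.65 ± 0.20), and *Pole* at 30.6, 20.8 and 20.5 against 14.6 ± 1.76 (0.66 ± 0.19). All 3 catalytic polymerase genes thus separated from the controls in each compound KO library, with adjusted p of 0.450 to 0.481. Without replicate 1, *Pold1* differed by 0.43 and *Pole* by 0.48.

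For other genes more of the difference rested on replicate 1. *Mki67* was at 181.3, 54.1 and 59.5 in compound KO libraries, and without replicate 1 its difference from control was 0.09. *Pcna* was at 88.7, 38.0 and 41.3, *Rrm1* at 111.6, 59.8 and 55.7 and *Nusap1* at 52.6, 22.4 and 17.8. In these 3 genes, replicates 2 and 3 reached into or near the control ranges of 26.5 to 38.3, 47.4 to 61.5 and 15.0 to 20.0. Without replicate 1 they differed from control by 0.23, 0.05 and 0.18. *Tpx2*, which assembles the spindle around chromosomes, was at 78.4, 44.9 and 35.0 against 27.4 to 31.0 and so stayed above the controls in every library (0.78 ± 0.29, adjusted p = 0.481), with a difference of 0.45 without replicate 1. In *Foxm1* and *Prc1*, the difference was below 0 without replicate 1 (-0.25 and -0.03).

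Several marker sums were at an extreme in compound KO replicate 1, as the sums of the list were. Replication genes added up to 994.3 there, against 455.2 to 628.7 in the other 8 libraries, and mitosis genes to 873.6 against 281.1 to 452.6. The sums of retina, mesenchyme, muscle, ectoderm, endothelium (155.0) and macrophage (38.6) markers were at their highest. Single markers were highest there for 5 of 10 endothelium and 7 of 8 macrophage genes. The sum of the fiber markers was at its lowest there. So was the sum for the lens epithelium, which holds the dividing cells (1300 against 1525 to 1747 in the other 8). Of the 11 epithelium markers, however, 4 were at their highest in this library. Double KO replicate 1, with the next highest sum of the list (1081), had the next lowest fiber sum (50031) and the next highest mesenchyme sum (447.7), but its retina sum (163.1) was below that of compound KO replicate 2 (239.8). Control replicate 2, with the lowest sum of the list, had the lowest neural retina sum (39.0) and the highest fiber (90753) and lens epithelium (1747) sums, while its mesenchyme sum (236.1) was above those of control replicate 1 (229.9) and double KO replicate 2 (221.6). Whether cells of neighbouring tissues or of the lens gave the higher values was not tested.

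**Figure D4:**
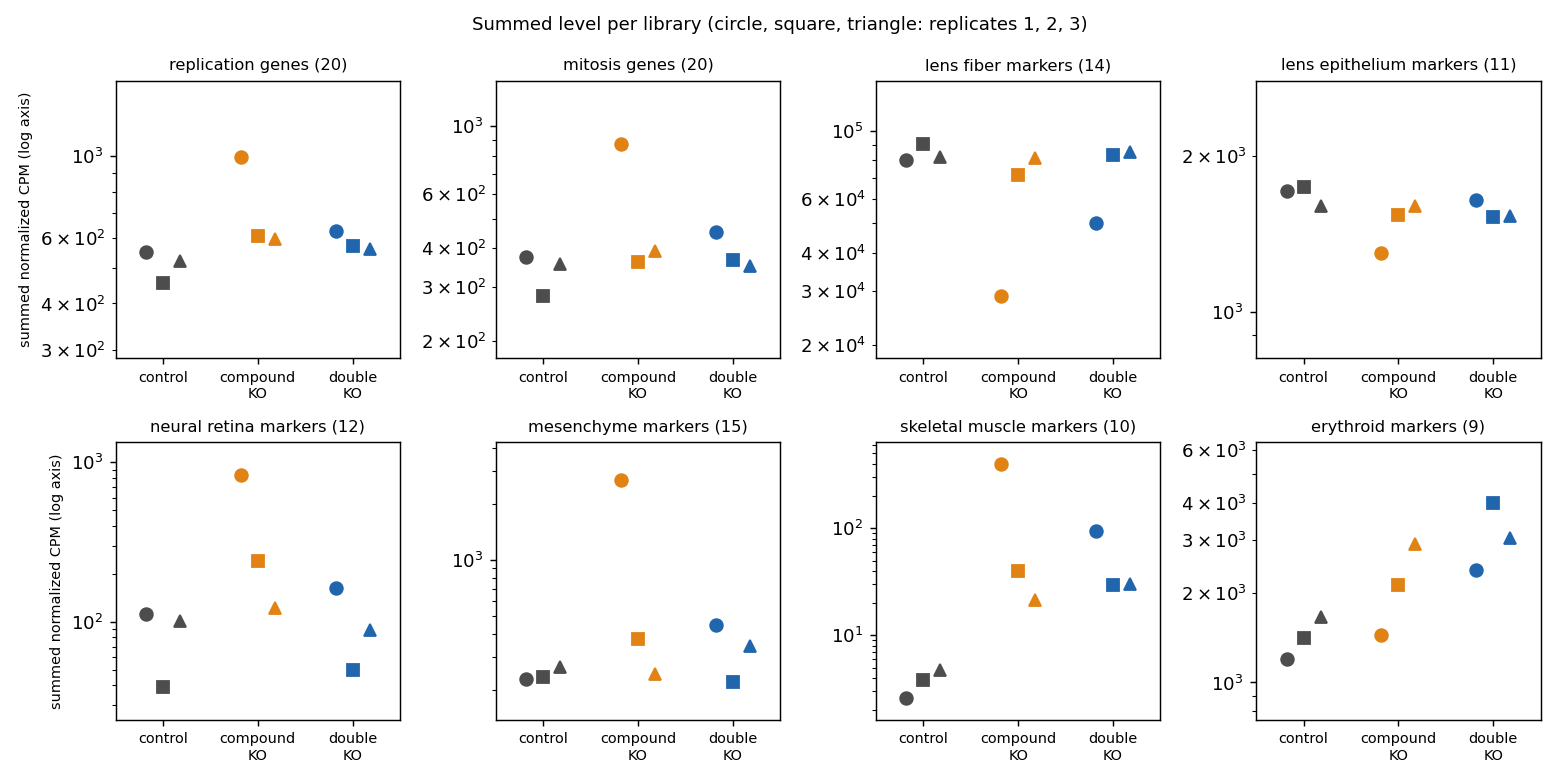
Summed normalized CPM (log axis) in each library for the replication genes, the mitosis genes and 6 marker lists, with the number of genes summed in brackets. Compound KO replicate 1 (orange circle) is highest for both gene groups and for retina, mesenchyme and muscle markers, and lowest for fiber markers.

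The third comparison sets double KO against compound KO lenses and so asks for the effect of removing the last *Mafk* allele. No gene of the list was called (0 of 40 by limma), beside 0.0139% of all 14402 genes tested. None differed nominally in either direction (unadjusted p up to 0.05), beside 1.81% of all genes higher and 3.06% lower in double KO. The differences were below 0 for 37 of 40, with a median of -0.38 on the log2 scale. *Anln*, *Cdc20*, *Gins2*, *Nuf2*, *Plk1*, *Pold1* and *Pole* were lower in double KO without overlap (7 of 40, beside 7.39% of all genes), and 0 were higher (8.17% of all genes). *Pola1* was 1 of 3 genes above 0 with all libraries, at 0.14 ± 0.13. Without compound KO replicate 1 the median was -0.06 and 15 of 40 were above 0, so most of the size of the difference rested on that library. Without it 0 of the 40 were called, beside 6 of all 14112 genes tested. Nominally, 1 was then higher and 0 lower, beside 2.49% and 2.87% of all genes. Without it 8 genes lay lower and 3 higher without overlap (10.6% and 11.7% of all genes). The 8 hold the same 7 genes by necessity, since leaving out a library cannot make separate groups overlap.

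Other genes of the same processes, on lists that do not hold the 40, were also mostly above 0 between double KO and control lenses. Of 52 other replication genes, 42 were above 0 with a median of 0.15, and none was called by limma, beside 0.361% of all genes. Nominally, 6 were higher and 0 lower, beside 4.79% and 5.18% of all genes. *Lig1*, the ligase that joins Okazaki fragments, differed by 0.34 ± 0.07 (adjusted p = 0.242) and the GINS gene *Gins4* by 0.29 ± 0.08 (adjusted p = 0.316). The lowest p among those below 0 belonged to *Timeless* (-0.36 ± 0.17), of the fork protection complex, and *Donson* (-0.16 ± 0.13). Of 67 other mitosis genes tested, 58 were above 0 with a median of 0.17, and none was called. Nominally, 10 were higher and 0 lower, beside the same shares of all genes. Control replicate 2 had the lowest sum of all libraries for both lists too. It was at 846.5 for other replication genes, against at least 882.8 in every other library. For other mitosis genes it was at 1181, against at least 1231. Both lists thus share the low control with the 40 genes. Medians of these lists without control replicate 2 are not given, and for the 40 genes its removal lowered the median from 0.21 to 0.13.

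Among these mitosis genes, *Ncapd2*, a subunit of the condensin I complex, stood out by size. It was at 3.7, 3.0 and 9.8 in control, 25.9, 53.1 and 6.1 in compound KO and 50.2, 43.5 and 26.7 in double KO libraries. The double KO libraries lay above all controls (2.76 ± 0.44, adjusted p = 0.127), and the compound KO libraries did not. *Cenpq*, of the inner kinetochore, differed by 0.35 ± 0.08 (adjusted p = 0.278), and *Zwint* and *Zw10* by -0.07 ± 0.05 and -0.37 ± 0.37.

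The regulators of these genes did not move in 1 direction. Of 18 tested E2F, Rb and DREAM genes, 10 were above 0 with a median of 0.06, and none was called. Nominally, 2 were higher and 2 lower, beside 4.79% and 5.18% of all genes. *E2f2* differed by 0.79 ± 0.19 (adjusted p = 0.278) and *Lin9*, of the MuvB core, by 0.32 ± 0.11. On the lower side were *Lin37*, also of MuvB (-0.26 ± 0.09), and the pocket protein gene *Rbl2* (-0.21 ± 0.08). The medians of the 4 lists in compound KO against control lenses were 0.40 for other replication, 0.46 for other mitosis, 0.14 for the regulators and 0.47 for cyclins and Cdks. Without compound KO replicate 1 they were 0.18, 0.19, 0.16 and 0.21.

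Of 19 cyclin, Cdk, Cdc25 and inhibitor genes, 1 was called between double KO and control lenses, beside 0.361% of all genes. Its direction was opposite to most of the list. *Cdk1*, the kinase that drives entry into mitosis, was at 24.8, 20.0 and 23.5 in control, 27.8, 11.0 and 27.4 in compound KO and 10.7, 9.3 and 8.3 in double KO libraries. It fell by 1.19 on the log2 scale with an SE of 0.13 (adjusted p = 0.0375 in limma), and every double KO library was below every other library. Dropping any 1 library ended the call (adjusted p from 0.0650 to 0.165, difference from -1.27 to -1.11). The call was also lost with library size scaling (limma adjusted p = 0.105). The same held in 1 fit of all 9 libraries (0.535) and with the replicate number as a block (0.183). *Cdkn1c*, the Cdk inhibitor p57 of cells that leave the cycle, was at 190.4, 267.3 and 203.9 in control and had a mean of 379 ± 43.6 in double KO libraries (0.79 ± 0.15, adjusted p = 0.194). The phosphatase gene *Cdc25c* differed by 0.26 ± 0.10 and the cyclin gene *Ccnd2* by -0.66 ± 0.35. In all, 14 of 19 were above 0 with a median of 0.12. Nominally, 2 were higher and 1 lower, beside 4.79% and 5.18% of all genes.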

How the data were processed

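RNA-seq of E16.5 lenses was analysed in 9 libraries, 3 of each genotype, grouped as labelled. The authors trimmed the reads with Trimmomatic, used HISAT2 to align them to mm39 and StringTie to count transcripts, and took out low entries in edgeR; versions are not given in the sources used here. The values deposited by the authors are a normalized signal, read here as CPM scaled by 1 composition factor per library, since the totals lie between 728036 and 1131184 with a geometric mean of 1000012. They are no read counts, so the depth is unknown and limma 3.58.1 (R 4.3.3) was used in place of a count model. It was fitted with an intensity trend to log2(value + 1) for each pair of genotypes. The p-values measure the spread between pools of 8 lenses.

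The 40 genes, the other gene lists, the marker lists and the rule for named genes (all 40, and from each list the genes called or with the smallest unadjusted p) were chosen with earlier results of these data known. *Cdk1* and *Cdkn1c* were named because the study names them. Positions come from GENCODE on GRCm39 and promoters from RefSeq on GRCm38.p6. On simulated data with 14122 genes and 200 changed between double KO and control, the test called 146 of the changed genes, 75 of 92 changed by 2 log2 units and 6 unchanged ones. Counts by expression level, or for differences as small as the median of the list, are not given. The 146 are therefore no measure of how often such small differences would be called. Python 3.11.15 with pandas 2.3.3 and matplotlib 3.10.9 was used for summaries. Alternatives were 2 other scalings, a pseudocount of 0.1, 2 other filters, summed entries, no fold threshold, a joint fit of the 9 libraries, a block for the replicate number, and leaving out each library.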

Additional observations from a re-analysis of the deposited data

How the results depend on the processing

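The number of the 40 genes called between double KO and control lenses (1, *Pola1*) became 0 with library size scaling, in a joint fit of the 9 libraries, with a block for the replicate number, and with any 1 library left out (0 to 0). It stayed at 1 with a pseudocount of 0.1, both other filters, upper quartile scaling, summed entries and no fold threshold. The genes at an unadjusted p of at most 0.05 numbered 9, and 1 in the fit of all 9 libraries (3 to 8 with a library left out). Between compound KO and control lenses they numbered 11, with 7 under library size scaling and 17 in the fit of all 9 libraries (2 to 13 with a library left out). Between double and compound KO lenses they numbered 0, and 0 to 2 with a library left out. No direction of a called value reversed. The median difference of the list ranged with a library left out from 0.13 to 0.25 for double KO and from 0.27 to 0.73 for compound KO against control, and from -0.50 to -0.06 between the knockouts. Library size scaling moved the median of all genes between compound KO and control from 0.02 to 0.24. That of the list moved with it, from 0.57 to 0.82, so part of the 0.82 is shared with all genes.

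Libraries with the same replicate number correlated by -0.105 to 0.218 after the group means were removed. Unlike numbers were not compared, so these values do not settle whether the numbers pair the libraries. The sum of the list was highest in replicate 1 of each genotype (925.0, 1868 and 1081). With the block, *Mki67* differed between double KO and control by 0.36 ± 0.14 (adjusted p = 0.559 in limma), against an SE of 0.44 without it. With the replicate number as a block, *Pola1* had an adjusted p of 0.318, 10 of all genes in place of 51 were called between double KO and control, and 2 of the 40 genes were lower in double than in compound KO at an unadjusted p of at most 0.05; the fit of all 9 libraries called 21 of all genes between double KO and control, and leaving out a library 22 to 47. The cause of these differences was not tested. The depth is unknown, so no limit from depth is given.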

Other observations

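Outside the list of 40, the 10 genes with a mean of at least 5 whose log2 values over the 9 libraries were most like the mean of the list were *Tdp2*, *Rpa2*, *Kif2c*, *Asf1b*, *Trip13*, *Ncapg2*, *Atad2*, *Ptma*, *Msh6* and *Shcbp1*. Their Pearson correlations with that mean were 0.988 to 0.994 over 9 libraries and 0.913 to 0.976 over the 8 without compound KO replicate 1. These are descriptions without a test, and compound KO replicate 1 was the highest library for each of the 10. *Rpa2*, a subunit of the protein that coats single-stranded DNA, and *Asf1b*, a histone chaperone, are on the list of other replication genes, and *Ncapg2*, of condensin II, is on the list of other mitosis genes, so that 3 of the 10 are on the lists. *Rpa2* was at 20.5, 18.1 and 20.8 in control, 35.1, 23.6 and 22.4 in compound KO and 24.6, 22.5 and 20.9 in double KO libraries. All compound and double KO libraries of *Rpa2* were above the highest control, double KO replicate 3 by 0.1 CPM. *Ptma*, prothymosin alpha, was at 77.7, 64.8 and 83.6 in control, 183.4, 99.5 and 98.4 in compound KO and 100.9, 87.7 and 90.6 in double KO libraries. *Ptma* also did not overlap with the controls. The rest of the 10 did overlap. *Tdp2*, *Kif2c*, *Asf1b*, *Trip13*, *Ncapg2*, *Atad2*, *Msh6* and *Shcbp1* each had a compound or double KO library below the highest control.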
